A study of Homo sapiens with 40 samples.

Results

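The cell cycle genes described here are a list of 45 genes, grouped by role into DNA replication (14 listed), mitosis (19), regulators of G1 and S phase (10) and cyclin-dependent kinase inhibitors (2). They were taken from the list by gene symbol alone, and 41 of the 45 had at least 1 named probe among the 4604 genes on the arrays. No named probe was found for MCM3, MCM6, TYMS and E2F1, so their RNA is not analysed here, but their promoters are counted below. The 41 genes were read by 120 probes, and 37 of them had a value on all 40 arrays.

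The study measured messenger RNA in OCI-Ly3 and OCI-Ly10, established lines of activated B-cell-like diffuse large B-cell lymphoma, a tumour of mature B cells known for constant NF-kB signalling. On every 2-colour array the treated cells were labelled with Cy5 and their control with Cy3, so each value is 1 log2 ratio of treated over control, and a dye effect cannot be told apart from a treatment effect. OCI-Ly10 cells received the cytokine IL-6 at 50 ng/ml (8 arrays from 0.5 to 24 h), and OCI-Ly3 cells received the cytokine IL-10 at 50 ng/ml (10 arrays from 1 to 96 h), each against untreated cells of the line. Cells of both lines carrying an inducible IkB super-repressor, a form of the NF-kB inhibitor IkB that resists degradation, received doxycycline at 20 ng/ml against the control of the same engineered line (9 arrays from 1 to 6 h in OCI-Ly3, 4 arrays from 1.5 to 24 h in OCI-Ly10). OCI-Ly10 cells were also electroporated with a pool of STAT3 siRNA at 4 µM against cells given no siRNA (5 arrays from 8 to 48 h), or received JAK inhibitor I at 5 µM, a compound that blocks the JAK kinases above STAT3 (4 arrays at 3 and 6 h, against OCI-Ly10 cells). The labels name no non-targeting siRNA, no parental cells given doxycycline and no vehicle for the inhibitor, and do not say whether an engineered line is 1 clone or a pool. They also do not say that replicate arrays came from separate cultures, so the p-values measure the spread between arrays, which may be technical.

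In cycling cells the D-type cyclins and their kinases open the way from G1 into S phase, the E2F factors then switch on the genes that copy DNA, and a second wave of genes for chromosome segregation follows before mitosis. CDKN1B (p27) and CDKN2D (p19) hold the cyclin-dependent kinases back. In B cells, cyclin D2 and cyclin D3 are the main D-type cyclins, and lymphoma lines are kept cycling by signals that include NF-kB and STAT3. Because a culture is a mixture of cells in every phase, these arrays cannot tell fewer cells in a phase from less RNA per cell.

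The promoters of 7 cell cycle genes named in the results are shown for the elements they carry: an E2F site in 3 and a cell cycle homology region in 4. CDC6 and RFC3 are of the replication list, CDC20, CCNB2 and KIF23 of the mitosis list, and CDC25A and CKS1B of the regulators of G1 and S phase. RefSeq's table of promoters (GRCh38.p14) held 39 of the 45 listed genes. MCM4, MCM5, TTK, AURKA, CDK2 and CCND2 had no entry. Each line gives the 150 bases before the start, 5′ to 3′ on the gene's strand. Capitals mark exact matches, on either strand, to an E2F site (TTTCCCGC, TTTGGCGC, TTTCGCGC, TTTGCCGC, TTTGGCGG or TTTCCCGG), to the cell cycle homology region or CHR (TTTGAA), or to the CCAAT box (CCAAT). The first 3, with an E2F site, are CDC6 (chr17:40287729-40287878, plus strand), which loads the replicative helicase, RFC3 (chr13:33817999-33818148, plus strand), a subunit of the clamp loader, and CDC25A (chr3:48188418-48188567, minus strand), a phosphatase that activates CDK2. The other 4, with a CHR, are CDC20 (chr1:43358831-43358980, plus strand), an activator of the anaphase-promoting complex, CCNB2 (chr15:59104996-59105145, plus strand), a mitotic cyclin, KIF23 (chr15:69414199-69414348, plus strand), a kinesin of cytokinesis, and CKS1B (chr1:154974531-154974680, plus strand), a small partner of cyclin-dependent kinases.
CDC6: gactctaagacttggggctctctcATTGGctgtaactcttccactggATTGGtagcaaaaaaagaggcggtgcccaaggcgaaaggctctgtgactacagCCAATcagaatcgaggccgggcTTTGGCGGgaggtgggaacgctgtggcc
RFC3: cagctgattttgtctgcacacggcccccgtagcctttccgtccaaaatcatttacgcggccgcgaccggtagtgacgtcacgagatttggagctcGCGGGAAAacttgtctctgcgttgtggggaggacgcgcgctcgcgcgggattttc
CDC25A: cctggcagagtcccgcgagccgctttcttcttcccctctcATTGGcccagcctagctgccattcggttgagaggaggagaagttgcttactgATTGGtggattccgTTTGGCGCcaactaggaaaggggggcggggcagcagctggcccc
CDC20: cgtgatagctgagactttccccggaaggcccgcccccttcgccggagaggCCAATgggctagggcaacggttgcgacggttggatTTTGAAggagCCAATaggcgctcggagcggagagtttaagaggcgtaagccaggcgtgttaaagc
CCNB2: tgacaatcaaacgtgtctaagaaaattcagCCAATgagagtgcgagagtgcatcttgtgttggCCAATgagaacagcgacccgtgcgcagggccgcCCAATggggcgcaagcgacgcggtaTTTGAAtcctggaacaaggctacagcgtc
KIF23: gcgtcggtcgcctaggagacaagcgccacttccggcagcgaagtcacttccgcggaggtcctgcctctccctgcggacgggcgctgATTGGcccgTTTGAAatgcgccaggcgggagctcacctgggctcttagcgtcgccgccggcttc
CKS1B: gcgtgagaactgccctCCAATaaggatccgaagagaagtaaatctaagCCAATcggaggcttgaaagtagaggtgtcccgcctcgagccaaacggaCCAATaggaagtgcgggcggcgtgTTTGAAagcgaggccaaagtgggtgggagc

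Over the 250 bases before the start, an E2F site stood in 7 of the 12 replication genes with a promoter (58.3%) and in 0 of the 17 mitosis genes, against 4.52% of all 27305 promoters in the table. It stood in 2 of the 8 listed regulators of G1 and S phase with a promoter (25%). The promoter counts of every list include genes without a probe, among them MCM3, MCM6, TYMS and E2F1. Of the listed genes with a probe, PCNA, RFC3, MCM7, CDC6 and CDC25A held an E2F site. In the lists of further cell cycle genes an E2F site stood in 12 of 42 replication genes (28.6%) and 9 of 55 mitosis genes (16.4%). Of the further G1 regulators and inhibitors 10 of 38 held one (26.3%). A CHR stood in 1 of the 12 replication genes (8.33%) and in 10 of the 17 mitosis genes (58.8%), against 13.6% of all promoters. It stood in 1 of the 8 listed regulators (12.5%). In the further lists a CHR stood in 1 of 42 replication genes (2.38%), 24 of 55 mitosis genes (43.6%) and 4 of 38 G1 regulators and inhibitors (10.5%). The CCAAT box stood in 7 replication genes (58.3%) and 14 mitosis genes (82.4%), against 33% of all, and the CHR together with a CCAAT box in 9 mitosis genes (52.9%), against 4.85%. The last base of a CHR and the first base of a reversed CCAAT box can be the same letter, as in MKI67. These are letter matches, not shown to be bound.

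STAT3 and NFKBIA serve as checks of the treatments. STAT3 itself was lower by 1.59 ± 0.167 (log2, standard error, n = 4 arrays) after its siRNA, on 4 of 4 arrays (limma, adjusted p = 6.4e-05), and lower by 0.69 ± 0.167 with JAK inhibitor I (4 arrays, adjusted p = 0.0264). NFKBIA, a target gene of NF-kB, was lower by 1.61 ± 0.101 in OCI-Ly3 (n = 7, adjusted p = 1.21e-08) and by 1.03 ± 0.147 in OCI-Ly10 (n = 3, adjusted p = 0.00269) with the super-repressor. STAT3 was higher by 1.37 ± 0.111 with IL-10 (n = 10, adjusted p = 1.45e-08), and its value with IL-6 was 0.08 ± 0.132 (n = 7, adjusted p = 0.785). Between 8862 and 14947 of the 15246 probes gave a value on an array, array medians lay between -0.031 and 0.011, and the deposited values carry no spot intensities, so their precision is known only from the arrays' spread.

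Each experiment was summarised as the mean log2 ratio over a window of time points, with every time point weighted equally. A gene is said to have risen or fallen when this mean differed from 0 in limma with a Benjamini-Hochberg adjusted p under 0.05 over all genes tested; errors are standard errors. Across the 6 experiments 35 of the 41 cell cycle genes passed in at least 1 experiment, 24 of them in exactly 1 and 11 in more. These are shares of 85.4%, 58.5% and 26.8%; over all 4592 genes tested the shares were 44.7%, 34.2% and 10.5%. In all there were 24 rises and 25 falls (1337 and 1291 over all genes), and 6 genes (14.6%, against 3.55% of all) passed in both directions. The 6 genes that passed in none were MCM2, MCM7, CDC25B, CDK2, CDK4 and CCNE1, although MCM2 fell in the late part of the IL-10 series described next.

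**Figure D1:**
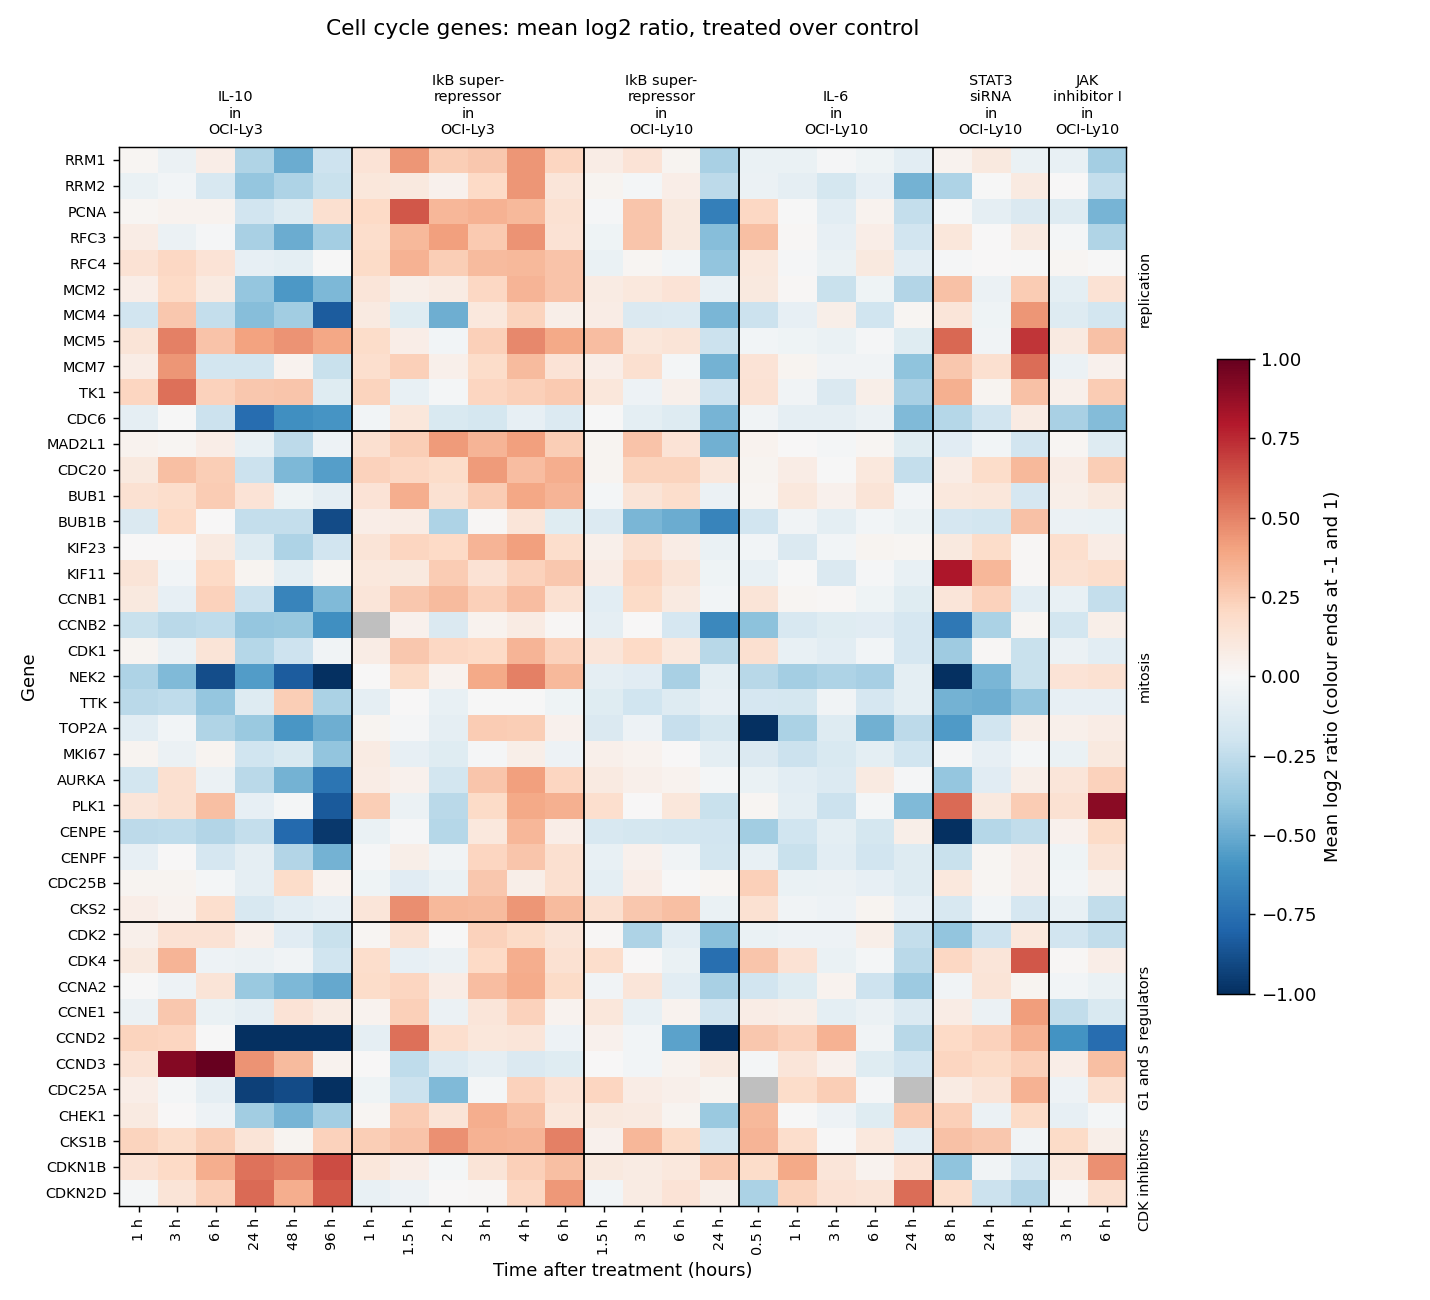
Mean log2 ratio of treated over control (colour, ending at -1 and 1) for the 41 cell cycle genes (rows, grouped by role) at each time point of the 6 experiments (columns, time in hours); grey cells have no value. In OCI-Ly3 cells most replication and mitosis genes are blue from 24 h of IL-10 and red with the IkB super-repressor.

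At late times of IL-10, 6 of 11 replication genes and 11 of 19 mitosis genes fell in OCI-Ly3 cells, both kinase inhibitors rose, and cyclin D2 was at 24.3% of its untreated level. Over 24, 48 and 96 h (4 arrays, 2 at 24 h and 1 each at 48 and 96 h), 21 of the 41 cell cycle genes fell and 3 rose. Of all 4442 genes tested in this window, 27.9% passed, 13.7% lower and 14.1% higher. The 41 genes had a median of -0.25, against -0.02 over all genes. The count was 16 of the 41 without the 96 h array, and 6 with the 24 h arrays alone, where CDC6 was the one replication or mitosis gene that passed.

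Among the regulators of G1 and S phase 4 of 9 fell and 1 rose (median -0.10). CCND2 encodes cyclin D2. Its log2 ratios were 0.23 and 0.21 at 1 h, 0.22 and 0.21 at 3 h, 0.31 and -0.32 at 6 h, -1.39 and -1.68 at 24 h, -2.28 at 48 h and -2.31 at 96 h. All 4 late arrays lay below all 6 early ones, and the late mean was -2.04 ± 0.11 (adjusted p = 5.59e-11). CDC25A, shown above with its E2F site, had ratios between -0.12 and 0.08 on the 6 arrays up to 6 h, then -0.60 and -1.26 at 24 h, -0.90 at 48 h and -1.07 at 96 h. Its late mean of -0.97 ± 0.0975 (adjusted p = 2.34e-06) is a level of 51.2% of control, and again the early and late arrays did not overlap. CCND2 and CDC25A were picked by their late means, so a gap between their arrays adds no separate support. No share of all genes with such a gap is given, here or for CDC6 and CDKN1B below. CCNA2 (cyclin A2, the S and G2 cyclin) fell by 0.45 and CHEK1 (a checkpoint kinase of S phase) fell by 0.39. CCND3, which encodes cyclin D3, went the other way. Its ratios were 0.22 and 0.07 at 1 h, 0.74 and 1.09 at 3 h, 0.96 and 1.12 at 6 h, 0.45 and 0.44 at 24 h, 0.32 at 48 h and 0.03 at 96 h. It was above 0 on 10 of 10 arrays, highest at 3 and 6 h and near 0 at 96 h, with a late mean of 0.27 ± 0.0735 (adjusted p = 0.0105). Its 4 probes differed, from -0.03 to 0.55 in the late window.

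Both kinase inhibitors rose. CDKN1B, which encodes p27, read 0.14 and 0.15 at 1 h, 0.19 and 0.21 at 3 h, 0.42 and 0.31 at 6 h, 0.56 and 0.52 at 24 h, 0.51 at 48 h and 0.65 at 96 h, so all 10 arrays were above 0 and the late arrays above the early ones. CDKN2D, which encodes p19, read -0.03 and -0.01 at 1 h, 0.09 and 0.17 at 3 h, 0.09 and 0.39 at 6 h, 0.53 and 0.59 at 24 h, 0.37 at 48 h and 0.61 at 96 h. The late means were 0.57 ± 0.0935 for CDKN1B (adjusted p = 0.000137) and 0.51 ± 0.0708 for CDKN2D (adjusted p = 1.81e-05).

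Of the 11 replication genes 6 fell and none rose in the late window (median -0.31). CDC6 had early ratios between -0.33 and 0.20, then -0.64 and -0.88 at 24 h, -0.62 at 48 h and -0.59 at 96 h. All its late arrays were below its early ones, and its late mean was -0.65 ± 0.098 (adjusted p = 4.85e-05). MCM4 (-0.53) and MCM2 (-0.47), both of the replicative helicase, RFC3 (-0.39), and RRM1 (-0.34) and RRM2 (-0.31), the subunits of ribonucleotide reductase that makes deoxynucleotides, also fell. The helicase subunit MCM5 did not follow them: it was above 0 on 9 of 10 IL-10 arrays, with a late mean of 0.41 ± 0.155 that missed the threshold (adjusted p = 0.0531). PCNA, the sliding clamp, at -0.05, and RFC4 at -0.06 did not pass either.

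Of the 19 mitosis genes 11 fell and none rose (median -0.29). NEK2, a centrosome kinase, read -0.06 and -0.56 at 1 h, -0.05 and -0.83 at 3 h, -0.42 and -1.36 at 6 h, -0.38 and -0.73 at 24 h, -0.83 at 48 h and -1.36 at 96 h. It was below 0 on all 10 arrays and lower on the replicate 2 array at each of the 4 times with both. The late mean of NEK2 was -0.92 ± 0.181 (adjusted p = 0.000765), but 1 of its 2 probes carried it, at -1.76 against -0.08 for the other. CENPE, a kinetochore motor, read -0.17 and -0.35 at 1 h, -0.16 and -0.35 at 3 h, -0.06 and -0.52 at 6 h, -0.13 and -0.35 at 24 h, -0.78 at 48 h and -0.96 at 96 h, with its lowest values on the last 2 arrays and a late mean of -0.66 ± 0.11 (adjusted p = 0.000139). The mitotic kinase AURKA (-0.49), topoisomerase TOP2A (-0.48), the B-type cyclins CCNB2 (-0.46) and CCNB1 (-0.44), the spindle checkpoint kinase BUB1B (-0.46) and CDC20 (-0.41) fell by similar amounts. The 3 probes of AURKA differed, from -0.97 to -0.25. CENPF (-0.29), the proliferation marker MKI67 (-0.25) and KIF23 (-0.21) fell least. The 8 probes of MKI67 ran from -0.90 to 0.22, with 1 above 0. BUB1 at 0.00, KIF11 at -0.02 and CDC25B at 0.04 stayed near 0.

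**Figure D2:**
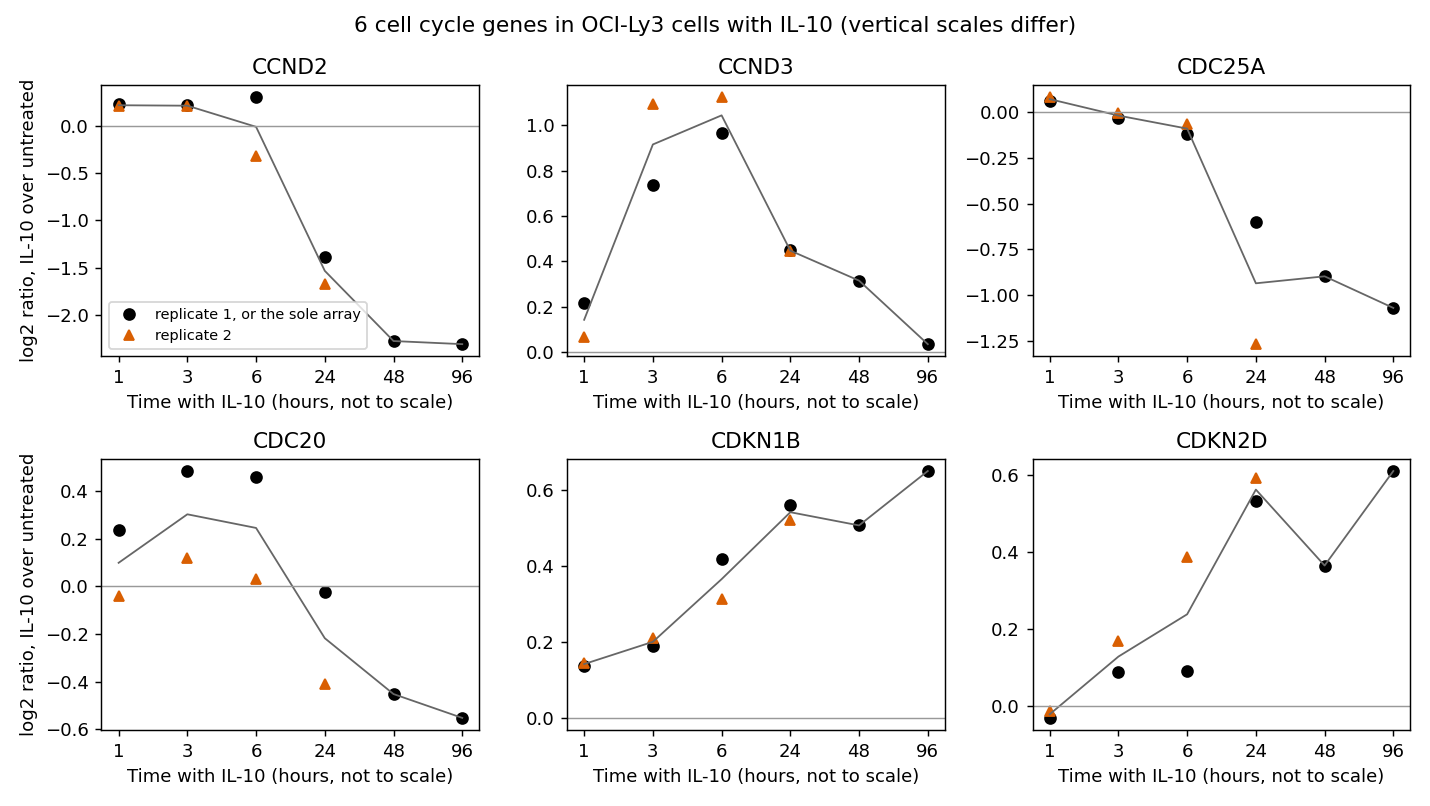
Log2 ratio of IL-10 over untreated (vertical axes, scales differ) for 6 cell cycle genes on each of the 10 arrays by hours of IL-10 (horizontal axis, not to scale); colours mark replicate 1 and replicate 2 and lines join time-point means. CCND2 leaves the range of its early arrays at 24 h, and CCND3 is highest at 3 and 6 h.

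Other replication and mitosis genes on the arrays also fell late with IL-10, a window in which 13.7% of all genes fell and 14.1% rose. Of 27 further replication genes tested 11 fell and none rose (median -0.23), led by TOPBP1 (-1.07, a replication initiation factor), DBF4 (-0.94, the partner of the initiating kinase CDC7) and POLE3 (-0.56, a polymerase epsilon subunit). Of 36 further mitosis genes 10 fell and none rose (median -0.20), led by the kinesin KIF15 (-0.87), the spindle protein ASPM (-0.64) and the mitosis-phase transcription factor MYBL2 (-0.62). Of 33 further G1 regulators 9 fell, led by CCND1 (-0.74), SKP2 (-0.65, which marks p27 for degradation) and the kinase inhibitor CDKN1A (-0.57), and 7 rose, led by CCNG2 (1.55, a cyclin of resting cells), CCNDBP1 (0.73) and MXD4 (0.45). CDKN1A, which encodes p21, had risen by 1.19 in the first 6 h (adjusted p = 7.06e-08) before it fell.

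Some markers of other cell states passed in the same late window. Of all genes 27.9% passed there, 14.1% higher and 13.7% lower. A ratio of treated over control cells gives no level, so the values show only whether a gene moved. PRDM1, the regulator that drives B cells towards plasma cells, was 2.92 higher, while CD38 (-0.90) and XBP1 (-0.44) fell, and the other 5 of 8 plasma cell markers did not pass. Of 9 B cell markers 3 rose (CD72 0.85, CD22 0.30, BLNK 0.29) and 2 fell (CD79A -0.59, CD37 -0.45). Of 8 T and NK cell markers 1 rose (CD3E 0.32), and of 5 myeloid markers 3 rose (CD14 0.46, ITGAM 0.39, CD68 0.36). Their part in the fall of the cell cycle genes was not tested.

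In the first 6 h of IL-10 (1, 3 and 6 h, 6 arrays) only 3 of the 41 cell cycle genes fell and 5 rose, with a median of 0.03. Of all 4428 genes tested 14.5% passed, 6.12% higher and 8.4% lower. CCND3 had the highest early mean, 0.70 ± 0.0569 (adjusted p = 4.96e-08), a 1.63-fold rise. TK1 (0.33 ± 0.0862, adjusted p = 0.0134), the S-phase thymidine kinase, was above 0 on all 6 early arrays, from 0.09 and 0.34 at 1 h through 0.36 and 0.75 at 3 h to 0.10 and 0.36 at 6 h. CKS1B (0.22) read 0.20 and 0.25 at 1 h, 0.09 and 0.28 at 3 h, and 0.45 and 0.04 at 6 h. CDKN1B (0.24) and the checkpoint kinase BUB1 (0.19) were the others that rose. NEK2 (-0.55 ± 0.14, adjusted p = 0.0126) and CENPE (-0.27 ± 0.0848, adjusted p = 0.0388) fell early as well as late. TTK, a spindle checkpoint kinase, fell in the early window: it read -0.21 and -0.34 at 1 h, -0.10 and -0.41 at 3 h, -0.40 and -0.37 at 6 h, then -0.19 and -0.07 at 24 h, 0.24 at 48 h and -0.31 at 96 h. Its early mean was -0.30 ± 0.0583 (adjusted p = 0.00159), its late value did not pass, and late minus early was not called.

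The 2 early replicate series lay apart. The median of the replication genes was 0.17 to 0.29 on the replicate 1 arrays and -0.20 to 0.01 on the replicate 2 arrays. The medians of the mitosis genes were 0.01 to 0.13 and -0.08 to 0.00 in the same order. The replicate numbers also divide the arrays by run of array identifiers, so replicate and run cannot be told apart. Over the times with both replicates, 19 of the 25 genes called over the whole IL-10 series had the same sign in both runs. RFC3, MCM4, CCNB1, AURKA, CENPF and CHEK1 did not. The 25 were called on arrays that include these, so shared signs add no separate support. That whole-series test, from 1 to 96 h, called 6 genes higher and 19 lower, against 16.1% higher and 19.2% lower (35.3% in all) of 4383 genes. A single array left out took the early count of 8 to as low as 3, without either 1 h array, and with the run as a random block 3 passed, CCND3, NEK2 and TTK.

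The change between early and late was tested directly. Late minus early was negative for 36 of the 41 genes, with a median of -0.24; 13 genes were lower late than early and 1, CDKN2D, was higher (0.40, adjusted p = 0.00499). Of all 4383 genes 13.5% passed, 5.52% lower and 7.96% higher, and their median was 0.01. CCND2 moved by -2.19 (adjusted p = 3.08e-09), CDC25A by -0.95 (adjusted p = 7.85e-05), and CDC20 went from 0.22 to -0.41 (difference -0.62, adjusted p = 0.00182). The 48 and 96 h arrays are single and share 1 array run, which holds no early array. With the 24 h arrays alone, which share runs with the early ones, all 24 late calls kept their direction but 6 passed: CCND2, CDC25A, CDC6, CCND3, CDKN1B and CDKN2D. The 24 h arrays are among those that made the late calls, so the kept directions add no separate support. Of the 14 late minus early differences, 4 passed with 24 h alone, those of CCND2, CDC25A, CDC6 and CDKN2D.

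With the super-repressor induced, cell cycle genes were higher in OCI-Ly3 cells, by small amounts. With the super-repressor induced for 2 to 6 h (7 arrays), 16 of the 41 genes rose and none fell (limma, adjusted p under 0.05; 23 had an unadjusted p under 0.05). Of all 4390 genes tested 14% passed, 9.16% higher and 4.87% lower, and 1357 had an unadjusted limma p under 0.05. The median of the 41 genes was 0.18, against -0.03 over all genes, and 33 of the 41 had means above 0. Without single arrays the count went to 9 (6 h replicate 1 or 2 h replicate 2) or 10 (4 h replicate 2), always with none lower. With the array run as a random block 8 of the 16 passed, and BUB1, CCNA2, CCNB1, CDK1, CDKN2D, CHEK1, KIF11 and PCNA did not.

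CKS1B, whose promoter with its CHR is shown above, had the highest mean, but its 3 probes differed, from 0.35 to 1.1. Its log2 ratios were 0.25 at 1 h, 0.28 at 1.5 h, 0.62 and 0.29 at 2 h, 0.35 at 3 h, 0.33 and 0.35 at 4 h, and 0.72 and 0.28 at 6 h. All 9 arrays were above 0, and the mean over 2 to 6 h was 0.41 ± 0.0682 (adjusted p = 0.000888), a 1.33-fold rise. MAD2L1, a spindle checkpoint protein, read 0.16 at 1 h, 0.25 at 1.5 h, 0.30 and 0.54 at 2 h, 0.34 at 3 h, 0.35 and 0.47 at 4 h, and 0.35 and 0.14 at 6 h. CKS2, the close relative of CKS1B, read 0.12 at 1 h, 0.46 at 1.5 h, 0.13 and 0.51 at 2 h, 0.32 at 3 h, 0.41 and 0.47 at 4 h, and 0.40 and 0.23 at 6 h. CDC20 read 0.23 at 1 h, 0.21 at 1.5 h, 0.19 and 0.18 at 2 h, 0.43 at 3 h, 0.34 and 0.27 at 4 h, and 0.59 and 0.13 at 6 h. None of these 4 genes had an array below 0. They were picked by their means over 2 to 6 h, so this adds no separate support, and no share of all genes is given. The means were 0.36 ± 0.0614 for MAD2L1 (adjusted p = 0.00121), 0.35 ± 0.0608 for CKS2 (adjusted p = 0.00124) and 0.32 ± 0.0733 for CDC20 (adjusted p = 0.00821).

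By role, 8 of 19 mitosis genes rose (median 0.18). Besides MAD2L1, CKS2 and CDC20 these were BUB1 (0.28), KIF23 (0.28), CCNB1 (0.25), CDK1 (0.24, the mitotic kinase) and the spindle kinesin KIF11 (0.23). Of 11 replication genes 4 rose (median 0.23), RFC3 (0.32 ± 0.0585, adjusted p = 0.00202), RRM1 (0.29), RFC4 (0.29) and PCNA (0.29). Of 9 regulators of G1 and S phase 3 rose (median 0.14), CKS1B, CCNA2 (0.24) and CHEK1 (0.23). The D-type cyclins did not pass, with CCND2 at 0.09 ± 0.0825 and CCND3 at -0.12, and neither did CDC25A at -0.02 or NEK2 at 0.31 ± 0.136 (adjusted p = 0.127).

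The inhibitor CDKN2D rose too, and its values came from the later arrays: -0.07 at 1 h, -0.05 at 1.5 h, 0.10 and -0.09 at 2 h, 0.01 at 3 h, 0.25 and 0.16 at 4 h, and 0.33 and 0.54 at 6 h. Its mean was 0.16 ± 0.0531 (adjusted p = 0.0446), with 4 probes from 0.03 to 0.38. The call was lost without further centring, with arrays scaled to equal spread, with probe medians and on the series' own arrays. It was also lost with the array run as a random block and against the other 5 experiments. CDKN1B read 0.12 at 1 h, 0.07 at 1.5 h, -0.34 and 0.30 at 2 h, 0.13 at 3 h, 0.12 and 0.35 at 4 h, and 0.37 and 0.23 at 6 h, and its mean of 0.16 ± 0.0701 did not pass (adjusted p = 0.127).

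The 2 h replicate 1 array stood apart: the replication genes had a median of -0.03 and the mitosis genes of -0.18 on it, while both medians were above 0 on the other 8 arrays. With both 2 h arrays left out 18 genes rose. All 16 genes had the same sign in both array runs that held replicates. They were called on a mean that includes these arrays, so the shared sign adds no separate support. On the 1 h array NFKBIA read -0.006. On that array 10 of 11 replication genes and 14 of 18 mitosis genes were above 0 (medians 0.17 and 0.08), as were 2233 of all 4486 genes. Whether the rises depend on NF-kB was not tested. A change within the series, 4 and 6 h minus 1 to 2 h, was called for none of 40 genes tested (limma, adjusted p under 0.05, median 0.11). It was called for 0.543% of all 4422 genes. An unadjusted limma p under 0.05 was seen for 4 of the 40 and for 198 of the 4422.

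**Figure D3:**
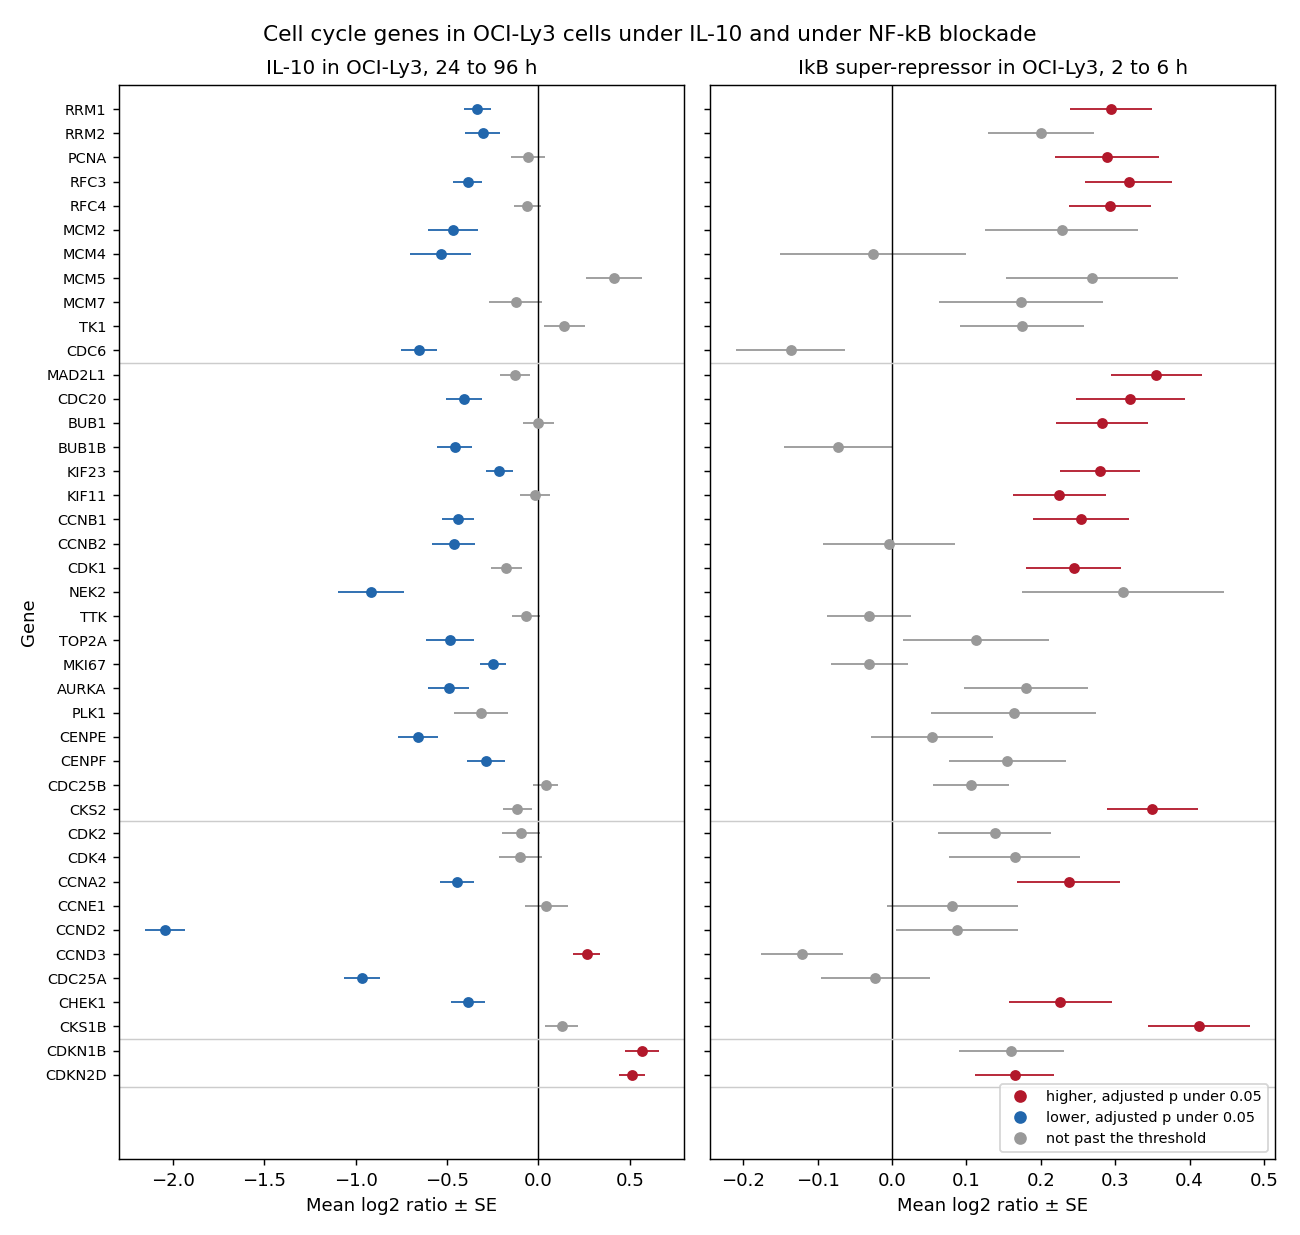
Mean log2 ratio (horizontal axes, with standard error) of the 41 cell cycle genes (rows) with IL-10 at 24 to 96 h (left, 4 arrays) and with the IkB super-repressor at 2 to 6 h (right, 7 arrays) in OCI-Ly3; red marks genes that rose, blue genes that fell, grey genes past neither threshold. The left panel holds 21 falls and 3 rises, the right 16 rises, and the horizontal scales differ.

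Of the 16 genes that rose with the super-repressor, 7 (43.8%) were among those that fell late with IL-10, which is 33.3% of those 21. Among all 41 cell cycle genes 21 fell late, so the risen genes held no larger share of falls. No overlap over all genes is given. The 7 shared genes are named next. They were CCNA2, CCNB1, CDC20, CHEK1, KIF23, RFC3 and RRM1. CKS1B, CKS2, MAD2L1, BUB1, CDK1, KIF11, PCNA and RFC4 rose with the super-repressor and did not pass late with IL-10, and CDKN2D rose in both. The times differ, and the controls were different lines, engineered in one case and parental in the other.

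Of 36 further mitosis genes 8 (22.2%) rose with the super-repressor in OCI-Ly3 and none fell (median 0.10), against 9.16% of all genes higher, among them PBK (0.34), MELK (0.30) and HMGB2 (0.30). Of 27 further replication genes 3 (11.1%) rose (median 0.06, against -0.03 over all genes), a share near that of all genes, among them RPA3 (0.27). Of 33 further G1 regulators 7 rose, among them CDKN3 (0.35) and E2F5 (0.33), and 2 fell, GADD45B (-0.56), a stress gene driven by NF-kB, and CCND1 (-0.32). Of 8 plasma cell markers TNFRSF17 (0.63), XBP1 (0.42) and CD38 (0.25) rose and IRF4 (-0.45) fell. Of 9 B cell markers 1 rose and 1 fell, and no T and NK or myeloid marker passed. Of all genes 9.16% rose and 4.87% fell in this window. Whether the marker shifts bear on the cell cycle genes was not tested.

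In OCI-Ly10 cells with the super-repressor no cell cycle gene rose, and cyclin D2 fell. Over 3, 6 and 24 h (3 arrays, 1 a time point) 2 of the 41 genes fell (limma, adjusted p under 0.05; 5 of 41 had an unadjusted p under 0.05), with a median of -0.05. Of all 4515 genes 0.532% passed, 0.221% higher and 0.31% lower, and 293 had an unadjusted limma p under 0.05. CCND2 read 0.04, -0.02, -0.54 and -1.13 at 1.5, 3, 6 and 24 h, a mean of -0.56 ± 0.121 (adjusted p = 0.0377). BUB1B read -0.14, -0.46, -0.50 and -0.66 at the same times, a mean of -0.54 ± 0.107 (adjusted p = 0.0212). Both were lower at each later time than at the one before. Leaving out the 6 h or the 24 h array left neither call, and leaving out the 3 h array left 1. Neither passed with the array run as a random block or against the other 5 experiments.

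At 24 h, the single array of OCI-Ly10 had all 11 replication genes below 0 (median -0.40, from -0.68 to -0.07) and 17 of 19 mitosis genes below 0 (median -0.09). Of all genes on that array 2328 were below 0 and 2235 above. PCNA read -0.68 and CDK4, the kinase partner of the D-type cyclins, -0.76. The inhibitors stayed slightly above 0: CDKN1B read 0.10, 0.08, 0.10 and 0.26 at 1.5, 3, 6 and 24 h, and CDKN2D -0.03, 0.08, 0.13 and 0.06. None of the further replication or mitosis genes passed, and CCNDBP1 rose (0.40, adjusted p = 0.0175). At the times both lines shared, 1.5, 3 and 6 h, OCI-Ly3 was higher than OCI-Ly10 for 38 of the 41 genes. Their median difference was 0.12, against 0.007 over all genes. None of the 41 passed (limma, adjusted p under 0.05), and 3 had an unadjusted p under 0.05. None of all 4384 genes passed (0%; 108 had an unadjusted p under 0.05). In simulated data of this comparison 84% of changes of 1 and 34% of changes of 0.5 on the log2 scale were recovered (4384 genes). Differences of the size of the median of the 41 genes could therefore be missed.

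JAK inhibitor I lowered cyclin D2 within hours in OCI-Ly10. CCND2 read -0.65 and -0.55 at 3 h and -1.03 and -0.49 at 6 h, all 4 below 0, a mean of -0.68 ± 0.104 (adjusted p = 0.000849) or 62.4% of control. CDC6 fell as well, at -0.23 and -0.43 at 3 h and -0.41 and -0.45 at 6 h (mean -0.38 ± 0.0929, adjusted p = 0.0277). PLK1, the polo-like kinase of mitosis, rose by 0.53 ± 0.14 (adjusted p = 0.0427), but its 4 values were 0.27 and 0.04 at 3 h and 1.61 and 0.20 at 6 h, so 1 array lay far above the rest. These were the only calls, 1 higher and 2 lower of 41 (median 0.01), against 3.26% of 4480 genes, 1.09% higher and 2.17% lower. CDKN1B read 0.00 and 0.21 at 3 h and 0.54 and 0.38 at 6 h and did not pass (0.28 ± 0.0887, adjusted p = 0.0889), nor did CDKN2D, at -0.02, 0.05, 0.20 and 0.13 on the same arrays. With the array run as a random block, and against the other 5 experiments, only CCND2 passed of these 3, and with probe medians PLK1 did not. The count was 1 without the 3 h replicate 1, the 3 h replicate 2 or the 6 h replicate 1 array. Of the further genes POLA1 (-0.49, the primase-bound polymerase), BTG3 (-0.44) and MYC (-0.70), a driver of growth and of S-phase entry, fell, and GADD45A rose (0.42).

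**Figure D4:**
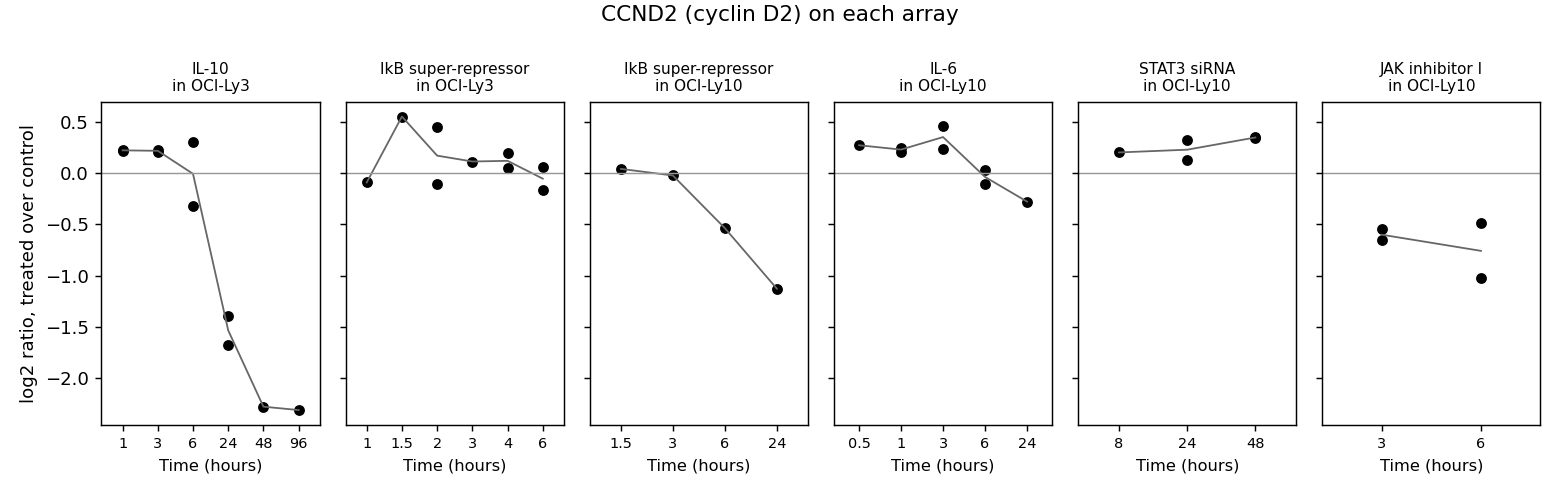
Log2 ratio of CCND2, which encodes cyclin D2, on each of the 40 arrays (points; treated over control, vertical axis) by hours of treatment (horizontal axis) in the 6 experiments. Cyclin D2 is low with IL-10 from 24 h, with JAK inhibitor I at 3 and 6 h and on the last arrays of the OCI-Ly10 super-repressor series.

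STAT3 siRNA lowered STAT3 without a fall in cyclin D2. At 24 and 48 h CCND2 read 0.13 and 0.33, and 0.34 and 0.35, a mean of 0.29 ± 0.104 that did not pass (adjusted p = 0.134). Of the 41 genes 2 fell and none rose (median 0.04), against 3.31% of 4346 genes, 1.27% higher and 2.05% lower. TTK read -0.47 at 8 h, -0.59 and -0.39 at 24 h and -0.43 and -0.36 at 48 h, all 5 arrays below 0, with a mean over 24 and 48 h of -0.44 ± 0.0714 (adjusted p = 0.00373). CDKN2D read 0.18 at 8 h, -0.09 and -0.35 at 24 h and -0.29 and -0.30 at 48 h (mean -0.26 ± 0.0672, adjusted p = 0.0437). CDKN1B, at -0.40, -0.20 and 0.13, and -0.19 and -0.14 on the same arrays, did not pass. Leaving out the 24 h replicate 1 array left neither call, and leaving out any other of the 4 left 1; with the array run as a random block TTK passed and CDKN2D did not. No further gene of the other cell cycle lists passed.

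The replicate 2 array at 48 h of siRNA stood apart, with MCM5 at 1.10, MCM4 at 0.96 and MCM7 at 0.77. The median of its replication genes was 0.33, against 0.01 on the replicate 1 array at that time.

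With IL-6, 1 cell cycle gene passed in OCI-Ly10, the kinase inhibitor CDKN2D. Over 1 to 24 h (7 arrays) CDKN2D rose and no other of 40 genes passed, against 4.54% of 3301 genes, 3.48% higher and 1.06% lower; CDC25A had too few values to be tested. CDKN2D read -0.31 at 0.5 h, then 0.20 and 0.23 at 1 h, 0.04 and 0.25 at 3 h, 0.07 and 0.18 at 6 h and 0.56 at 24 h, above 0 on all 7 arrays of the window (mean 0.26 ± 0.0531, adjusted p = 0.00649). The call was lost without the 24 h array, with the array run as a random block and against the other 5 experiments. With the replicate number as a block 3 genes passed. For IL-6 this block pairs arrays of the same run, and for IL-10 it does so up to 24 h. CDKN1B read 0.18 at 0.5 h, 0.43 and 0.33 at 1 h, 0.31 and -0.06 at 3 h, 0.05 and 0.02 at 6 h and 0.14 at 24 h and did not pass (adjusted p = 0.171).

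CCND2 with IL-6 read 0.27 at 0.5 h, 0.25 and 0.21 at 1 h, 0.46 and 0.24 at 3 h, 0.03 and -0.10 at 6 h and -0.28 at 24 h, high up to 3 h and lower after, with a mean of 0.07 ± 0.0825. Small negative means were common: 34 of the 40 genes were below 0 (median -0.06, against -0.009 over all genes). On the single 24 h array 10 of 11 replication genes (median -0.24) and 17 of 19 mitosis genes (median -0.12) were below 0, while both inhibitors were above 0. Of all genes on that array 1919 were below 0 and 2065 above.

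Differences between treatments at shared times were tested gene by gene. JAK inhibitor I minus IL-6 at 3 and 6 h in OCI-Ly10 differed for CCND2 alone among the 41 genes (-0.84 ± 0.148, adjusted p = 0.00317), against 2.17% of 4001 genes, 0.6% higher and 1.57% lower. The super-repressor minus IL-10 at 1, 3 and 6 h in OCI-Ly3 differed for CCND3 alone of 40 (-0.77 ± 0.093, adjusted p = 2.53e-05), against 3.53% of 4336 genes, 1.31% higher and 2.21% lower. IL-10 in OCI-Ly3 minus IL-6 in OCI-Ly10 at 1, 3, 6 and 24 h differed for CCND3 (0.67 ± 0.074, adjusted p = 1.05e-05) and TK1 (0.43 ± 0.112, adjusted p = 0.0195) of 40, against 9.5% of 3644 genes, 3.9% higher and 5.6% lower. With the replicate block 4 genes passed, and with the array run as a random block CCND3 alone. In this last comparison the cytokine and the cell line cannot be told apart.

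The medians of the replication and mitosis genes were set side by side on each array. With JAK inhibitor I the replication median lay below the mitosis median on 4 of 4 arrays, by 0.06 to 0.30. With STAT3 siRNA it lay above on 5 of 5 arrays, by 0.04 to 0.28. In the other experiments the order varied, with replication above mitosis on 5 of 8 IL-6 arrays, 6 of 10 IL-10 arrays, 6 of 9 and 3 of 4 super-repressor arrays in OCI-Ly3 and OCI-Ly10. These are descriptions of the arrays, with no test.

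**Figure D5:**
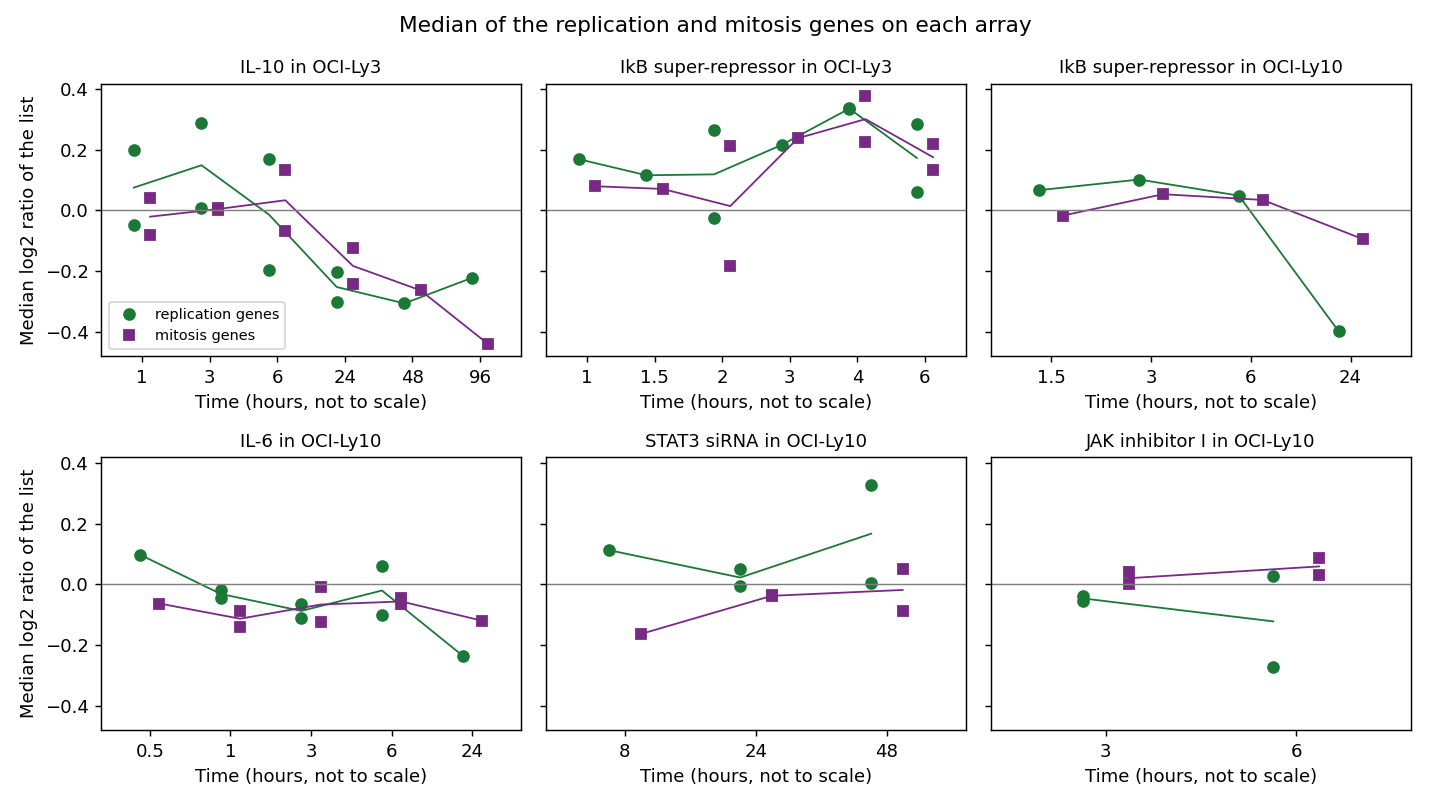
Median log2 ratio (vertical axes, treated over control) of the replication genes and of the mitosis genes on each array (points) by hours of treatment (horizontal axes, not to scale) in the 6 experiments; lines join time-point means. Both medians lie below 0 on all 4 late IL-10 arrays and above 0 on 8 of 9 super-repressor arrays in OCI-Ly3.

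The sequence elements shown above were found both in genes that passed and in genes that did not. Of the 35 genes with both a probe and a promoter, 12 held a CHR, of which 7 fell late with IL-10 and 7 rose with the super-repressor in OCI-Ly3. Of the 23 without a CHR 11 fell and 9 rose. The medians were -0.28 and 0.23 with a CHR and -0.13 and 0.17 without, in the same order. Of the 5 with an E2F site 3 fell late with IL-10, RFC3, CDC6 and CDC25A, and 15 of the 30 without one fell.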

How the data were processed

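The 40 arrays are 2-colour, with RNA extracted by Trizol and labelled by oligo dT priming, per the labels' protocols. The authors deposited 1 log ratio per probe and array, read here as log2 of Cy5 (treated) over Cy3 (control); the base and any earlier processing are not given in the sources that were used, and a log of another base would rescale every value by 1 factor. STAT3 after its siRNA and NFKBIA with the super-repressor were below 0, which bears out the direction. Of 15246 probes 10169 had 1 gene symbol, 5073 none and 4 several; 12.6% of values were blank, and values ran from -7.868 to 5.81. Only probes with 1 symbol were used.

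Each array was centred on its median and probes were averaged per gene. limma 3.58.1 in R 4.3.3 (the data.table package, version 1.17.8; figures with matplotlib 3.10.9 and pandas 2.3.3 in Python 3.11.15) fitted 1 mean per experiment and time over all 40 arrays, so all experiments share 1 estimate of spread, and tested each window's mean against 0 with eBayes. A gene was tested where it had values on 75% of a window's arrays and at least 1 value at each time; p-values were adjusted over all genes tested, and 0.05 was the threshold. The fit was tested on simulated data: of genes changed by 0.5 on the log2 scale it recovered 95% for IL-10, 87% for the super-repressor in OCI-Ly3 and 34% for the difference between the lines (4383, 4390 and 4384 genes).

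The members and the lists were chosen with earlier results of these data known. Values on every array were given for up to 4 highest and 4 lowest genes called per window and for the kinase inhibitors, and up to 3 called genes in each direction were named per further list. Replicate 2 minus 1 differences of different times correlated at 0.185 to 0.229 (IL-6, 3 pairs of times) and 0.393 to 0.59 (IL-10, 6 pairs), so in these series the numbers were taken to pair arrays; in OCI-Ly3 with the super-repressor they ran from -0.368 to 0.336. A gap of over 50 in the array identifiers was taken to start a new array run (12 runs). Alternatives were another scaling, other filters, probe medians, each experiment fitted alone, the run as a random block, the replicate block, the other experiments as reference, and each array left out in turn.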

Additional observations from a re-analysis of the deposited data

Results flagged for a closer look

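In the IL-10 series in OCI-Ly3, 14 cell cycle genes differed between the late arrays (24, 48 and 96 h) and the early arrays (1, 3 and 6 h) by limma's test of the difference itself, and each is given here as late minus early on the log2 scale. Among the replication genes these were MCM2 (-0.59), CDC6 (-0.55), RFC3 (-0.39) and RRM1 (-0.34). Among the mitosis genes they were CDC20 (-0.62), CCNB1 (-0.52), BUB1B (-0.48) and AURKA (-0.46). Among the regulators of G1 and S phase they were CCND2 (-2.19), CDC25A (-0.95), CCNA2 (-0.47), CCND3 (-0.44) and CHEK1 (-0.40). The kinase inhibitor CDKN2D (0.40) was the one that was higher late. CCND3 was above 0 in both windows, at 0.70 early and 0.27 late, so its negative difference is a smaller rise, not a fall below control.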

How the results depend on the processing

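No direction reversed among the members called, under any setting run. The settings reuse arrays that made the calls, so this adds no separate support. Counts of members called moved by more than 1.5 times as follows, and the cause was not tested. With arrays scaled to equal spread the counts were 4 for IL-6 (1 in the report), 4 in OCI-Ly10 with the super-repressor (2), 1 for STAT3 siRNA (2), 5 for early IL-10 (8), 7 for late minus early IL-10 (14), 2 for the super-repressor minus IL-10 (1) and 2 for JAK inhibitor I minus IL-6 (1). With each experiment fitted on its own arrays, and so with fewer arrays for the spread, they were 0 for IL-6, 16 for IL-10 (25), 10 for the super-repressor in OCI-Ly3 (16), 0 for STAT3 siRNA, 0 for JAK inhibitor I (3), 2 for early IL-10 and 3 for late minus early IL-10; the OCI-Ly10 super-repressor series, with 1 array a time, could not be fitted alone. With the array run as a random block (consensus correlation 0.2687) they were 0 for IL-6, 8 in OCI-Ly3 with the super-repressor, 0 in OCI-Ly10 with it, 1 for STAT3 siRNA (TTK), 1 for JAK inhibitor I (CCND2), 3 for early IL-10, 1 for the super-repressor late minus early in OCI-Ly3 (0) and 1 for IL-10 minus IL-6 (2). The 8 were CDC20, CKS1B, CKS2, KIF23, MAD2L1, RFC3, RFC4 and RRM1.

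With the replicate number as a block (replicate block) no member call was lost, and the counts were 3 for IL-6, 7 for STAT3 siRNA, 2 for the super-repressor minus IL-10, 4 for IL-10 minus IL-6 and 2 for JAK inhibitor I minus IL-6; the other counts stayed within 1.5 times. For STAT3 siRNA and JAK inhibitor I there was 1 pair of times each (correlations 0.254 and 0.217). Their arrays of 1 replicate number also share an array run. Against the other 5 experiments the counts were 14 for IL-10, 0 for the super-repressor in OCI-Ly10 and 1 for JAK inhibitor I. Of the IL-10 calls tested there 12 of 24 were kept (AURKA, CCNA2, CCNB1, CCND2, CCND3, CDKN1B, CDKN2D, CENPE, CHEK1, NEK2, RFC3 and RRM1). For IL-6 the count stayed at 1, but CDKN2D was lost and another member passed. With the 24 h arrays alone, a setting added after seeing the data, they were 6 for late IL-10 and 4 for late minus early.

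Leaving out 1 array at a time gave 0 to 1 for IL-6, 16 to 26 for IL-10, 9 to 18 in OCI-Ly3 with the super-repressor, 0 to 1 in OCI-Ly10 with it, 0 to 1 for STAT3 siRNA, 1 to 2 for JAK inhibitor I, 3 to 7 for early IL-10, 16 to 22 for late IL-10, 10 to 17 for late minus early, 0 to 0 for the super-repressor late minus early and for OCI-Ly3 minus OCI-Ly10, 1 to 2 for the super-repressor minus IL-10, 1 to 3 for IL-10 minus IL-6 and 1 to 2 for JAK inhibitor I minus IL-6.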

Other observations

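The 8 h array of STAT3 siRNA lies outside the tested window and has no replicate. On it CENPE read -1.15, NEK2 -1.08 and KIF11 0.81, while 12 of 19 mitosis genes were below 0 (median -0.16) and 7 of 11 replication genes above 0 (median 0.11). Of all genes on that array 2270 were below 0 and 2187 above. The 0.5 h array of IL-6 is likewise single, with TOP2A at -1.07 and the other mitosis genes around a median, with TOP2A included, of -0.06.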
